A study of Caenorhabditis elegans with 2 samples.

Results

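The genes described here are the 8 core members of the insulin signalling pathway of Caenorhabditis elegans, daf-2, age-1, pdk-1, akt-1, akt-2, sgk-1, daf-18 and daf-16. They were chosen by name, out of 19973 nuclear protein-coding genes, and examined in chromatin immunoprecipitation sequencing (ChIP-seq) for MXL-2, a transcription factor of the Myc and Max family. The samples are 2 biological replicates of 1 group of whole L4 larvae aged 48 h, grown from starved L1 larvae of strain RW12316. In this strain a CRISPR insertion tags mxl-2 at its own locus with TY1, EGFP and 3xFLAG, and the precipitation used an antibody against GFP, although in the labels the antibody is entered as mxl-2. All tissues of the larva were pooled, and control chromatin was not analysed here.

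A peak counted for a gene where its summit lay in the gene body or within 5 kb of the annotated 5' end. The authors' ranked lists hold every candidate peak, with a signal on the scale of their peak caller and an irreproducible discovery rate (IDR). Every line of their thresholded lists has an IDR of 0.01 or lower, but not every candidate at such an IDR is listed, since the whole-experiment list has 983 lines and 1104 candidates met that limit. At the 8 genes the candidates within the limit and those listed were the same. A thresholded peak, after overlapping lines were joined, is called a region. The 8 windows, 149 kb in all, held 3 of the 968 regions of the whole-experiment list and 177 of its 91788 candidates. Read numbers are not part of the lists and the depth is therefore unknown. Signals can be compared within a list but not between lists.

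In the insulin pathway, DAF-2, the receptor for insulin-like peptides, activates AGE-1, the catalytic subunit of phosphatidylinositol 3-kinase. The lipid that AGE-1 makes recruits PDK-1, which activates the kinases AKT-1, AKT-2 and SGK-1, and the lipid phosphatase DAF-18 removes that lipid. The Akt kinases phosphorylate DAF-16, a FOXO transcription factor, and hold it in the cytoplasm, so that lower insulin signalling lets it enter the nucleus. MXL-2 pairs with the Mondo-like protein MML-1, and proteins of this family are known to bind the E-box CACGTG. The opposing pair MDL-1 and MXL-1 is known to limit lifespan in a manner that needs daf-16.

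The sequences below show what lay under, and beside, the peaks of these genes, read 5' to 3' on the strand of the gene from the RefSeq genome of assembly WBcel235, which is ce11. The first is the 101 bp centred on the summit of the only pdk-1 region. It holds no CACGTG, and its capitals mark ACGCAG, here read on the other strand as CTGCGT, and CACGCG, a pair of hexamers picked after the peak sequences had been seen.
pdk-1 intron (chrX:1323198-1323298, plus strand): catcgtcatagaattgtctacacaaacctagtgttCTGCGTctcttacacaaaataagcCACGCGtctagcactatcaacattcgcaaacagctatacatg

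The next sequences are CACGTG sites of members without a region, with the E-box in capitals and 10 bases on either side. They are 11 of 26 such sites, chosen after all had been seen, and sites flanked by GTG are over-represented among them. They are shown because the same letters lay under the strongest peak of the pathway, at daf-16, whereas these sites lay under candidates short of the IDR limit or under none. Each is named by the distance of its first base from the 5' end of the gene.
daf-18 at −3738 bp (chrIV:428900-428925, minus strand): ccacgttaatCACGTGgagcagctga
akt-1 at −2308 bp (chrV:10246587-10246612, plus strand): atttatgacaCACGTGggtgaataga
akt-2 at −1383 bp (chrX:14146307-14146332, plus strand): agctcttgtgCACGTGgtggcaggca
akt-2 at −1202 bp (chrX:14146488-14146513, plus strand): aatttgacacCACGTGtcagtggaaa
akt-2 at −305 bp (chrX:14147385-14147410, plus strand): atagggtttcCACGTGgtgtcagaat
akt-2 at −136 bp (chrX:14147554-14147579, plus strand): cgtagtgggaCACGTGgttttccatt
age-1 at 5973 bp (chrII:11521066-11521091, minus strand): attgatatgcCACGTGgtgccaggct
daf-2 at 18539 bp (chrIII:3022292-3022317, minus strand): agtttgacacCACGTGagccgctacg
daf-2 at 18362 bp (chrIII:3022469-3022494, minus strand): accgagccgcCACGTGgtgccaattc
daf-2 at 4347 bp (chrIII:3036484-3036509, minus strand): gcaactttacCACGTGgtgccagagt
daf-2 at 1235 bp (chrIII:3039596-3039621, minus strand): caatctgtgcCACGTGggaattggtt

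Regions were found at the downstream end of the pathway, at daf-16, and at pdk-1 among the kinases, while the receptor gene, the lipid kinase and phosphatase genes, both Akt genes and sgk-1 had none. Of the 8 members, 2 had a region in the whole-experiment list (25%). The exact Clopper-Pearson 95% interval is 3.19 to 65.1, but it applies to genes drawn at random, whereas these 8 were chosen by name. By the same rule 9.01% of all protein-coding genes had a region. All 8 members are among the 25% of genes with the longest bodies, of which 10.8% had a region. In the replicates' own lists daf-16 was the only member with a region, against 4.30% of all genes in replicate 1 and 4.41% in replicate 2. Since regions of 1 group were counted and the members were few, no test was made of these shares.

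The strongest peak of the pathway lay inside daf-16 (WBGene00000912, chrI:10750498-10776703, plus strand, ce11). Its region at chrI:10751709-10751914 had a signal of 421 and ranked 27 of 968, at 5.12 times the median signal of the list. In replicate 1 the signal there was 208 and in replicate 2 it was 215, each on its own list's scale, so no mean or SD over the replicates is given. The peak ranked 37 among all candidates of each replicate, at an IDR of 1e-05, the lowest value the lists hold. The summits of the replicates were 8 bp apart. Its signal was 6.43 times that of the next candidate at daf-16 in the whole-experiment list, 5.73 times in replicate 1 and 5.39 times in replicate 2.

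By position, this peak lay inside the daf-16 transcripts that start near the annotated 5' end of the gene and upstream of the starts of the others. Whether it acts on any of them was not tested. The gene has 11 annotated transcripts with 7 distinct 5' ends, and its summit lay 1299 bp downstream of the first of them. This is in intron 2 of the d and k transcripts, intron 3 of the f and i transcripts and intron 4 of the h transcript, whose starts lie within 462 bp of one another. The transcripts b, c, l, m, a and e start inside the gene, 12605 to 22501 bp from the first 5' end and so well past the summit. The distinct transcripts are known to encode DAF-16 proteins with different first parts. Annotated starts in this organism are often trans-splice sites rather than true starts of transcription.

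The internal daf-16 starts had no peak of this size. Within 1000 bp of the start of b and c the highest signal was 27.9 (IDR 0.641), and for l and m it was 29.6 (IDR 0.554). The a start had 39.4 (IDR 0.322) and the e start 28.1 (IDR 0.647). The median signal over all candidates of the list was 22.5. At the first 5' end itself the highest signal apart from the strong peak was 33.2, at an IDR of 0.241.

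**Figure D1:**
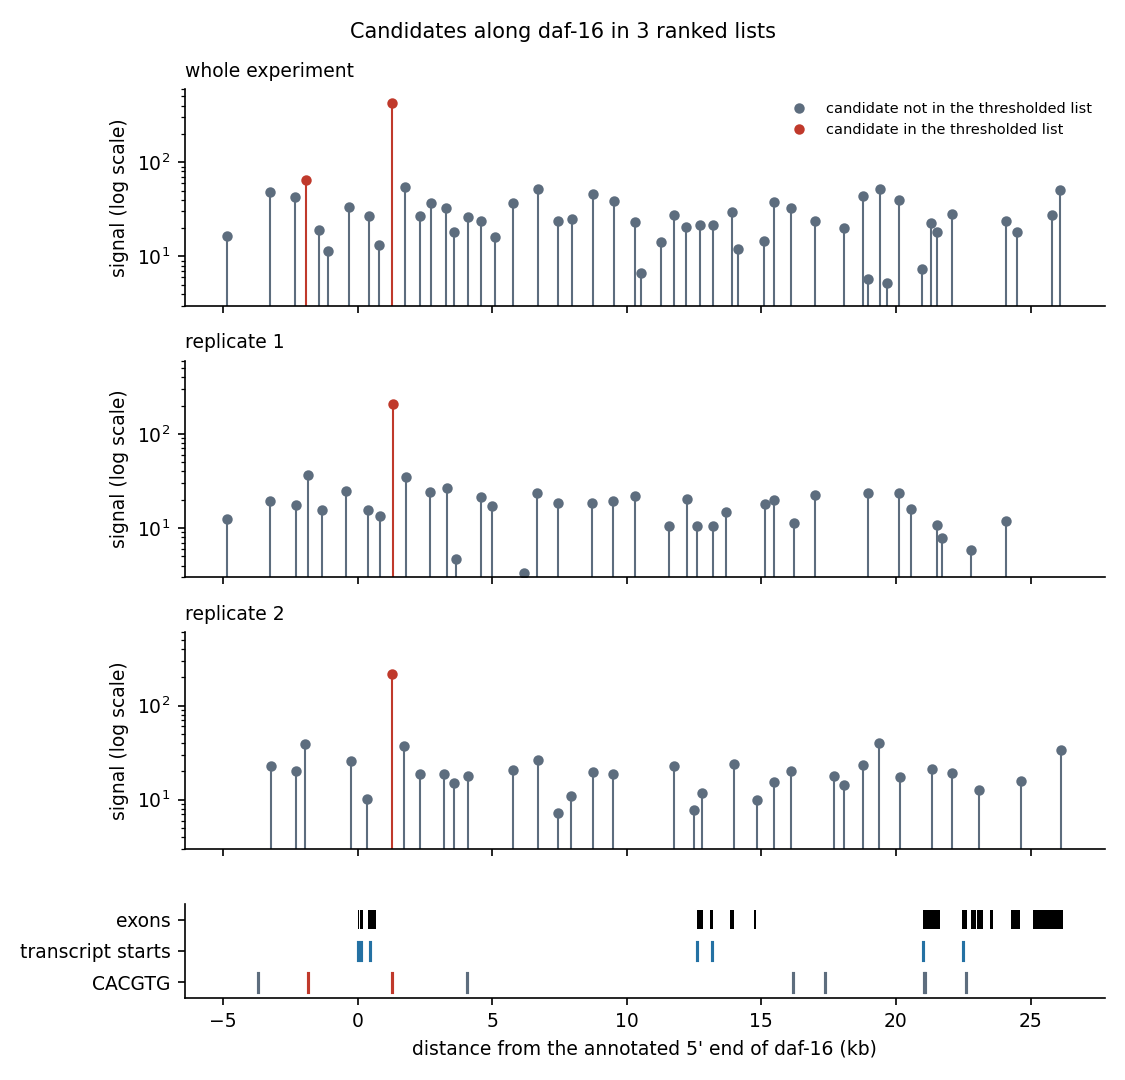
Signal of every candidate (log scale) against distance from the annotated 5' end of daf-16 in kb, for the whole-experiment list and each replicate, over the exons, transcript starts and CACGTG sites. Red marks candidates in the thresholded list and CACGTG inside a region; in all 3 panels 1 peak, at 1.3 kb, stands above the rest, with signals of 421, 208 and 215.

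A second daf-16 region lay before the gene, with its summit at −1914 bp from the first 5' end (chrI:10748454-10748713, signal 65.5, rank 811 of 968). Its signal was below the list median of 82.1. The overlapping candidates had signals of 36.4 in replicate 1 and 39.4 in replicate 2 and ranks of 938 and 776. Neither replicate's thresholded list held it, at an IDR of 0.0610 and 0.0222. The summits of the replicates were 130 bp apart, compared with 8 bp for the strong peak. Of all protein-coding genes, 1.26% had 2 or more regions, as daf-16 did. That share was not measured for genes of similar length, and the daf-16 window is 31.2 kb long. In the lists of related genes described below, tps-2 had 3 regions, and ins-13, icl-1, smk-1, skn-1 and din-1 had 2 each. The other genes with a region in those lists had 1 each. Only 1 signal per gene is given there.

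Below the strong peak, the next daf-16 candidates by signal, from 65.5 down to 52.2, fell on either side of the IDR limit of 0.01. The upstream daf-16 region passed in the whole-experiment list at an IDR of 0.00913. Another daf-16 candidate, 1748 bp into the gene and next to the strong peak (chrI:10752116-10752375, signal 54.5), missed it there at 0.0167 and passed in the conservative list at 0.00292. Its signals were 34.9 in replicate 1 and 37.1 in replicate 2, and neither of those lists called it. The next by signal, in an intron 19415 bp into the gene (52.2), missed the limit at 0.0111 in the whole-experiment list and at 0.155 in the conservative one. In replicate 2 the candidate there, at 19365 bp, had a signal of 39.8 at an IDR of 0.0371.

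The pdk-1 region was as weak as the upstream daf-16 region. PDK-1 links the lipid signal to the Akt kinases, and its gene (WBGene00003965, chrX:1321344-1327986, plus strand) had the region in intron 2 of both its transcripts, 1904 bp from the 5' end (chrX:1323118-1323377). The signal was 66.4, rank 789 of 968. In replicate 1 the overlapping candidate had a signal of 28.0 at an IDR of 0.135, and in replicate 2 a signal of 38.7 at 0.0259. Neither replicate's thresholded list held it, although the summits were 5 bp apart. It was the strongest candidate of pdk-1 in replicate 2, whereas in replicate 1 a candidate at −1408 bp, with a signal of 28.6, was higher by less than 1 unit of signal. The next pdk-1 candidate of the whole-experiment list, at −1409 bp, had a signal of 55.9 and an IDR of 0.441, or 0.0321 in the conservative list. Over all 968 regions 29.6% overlapped a noncoding RNA gene, and none of the 3 regions of the members did. For each of these 3 the nearest protein-coding 5' end was that of the member itself.

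**Figure D2:**
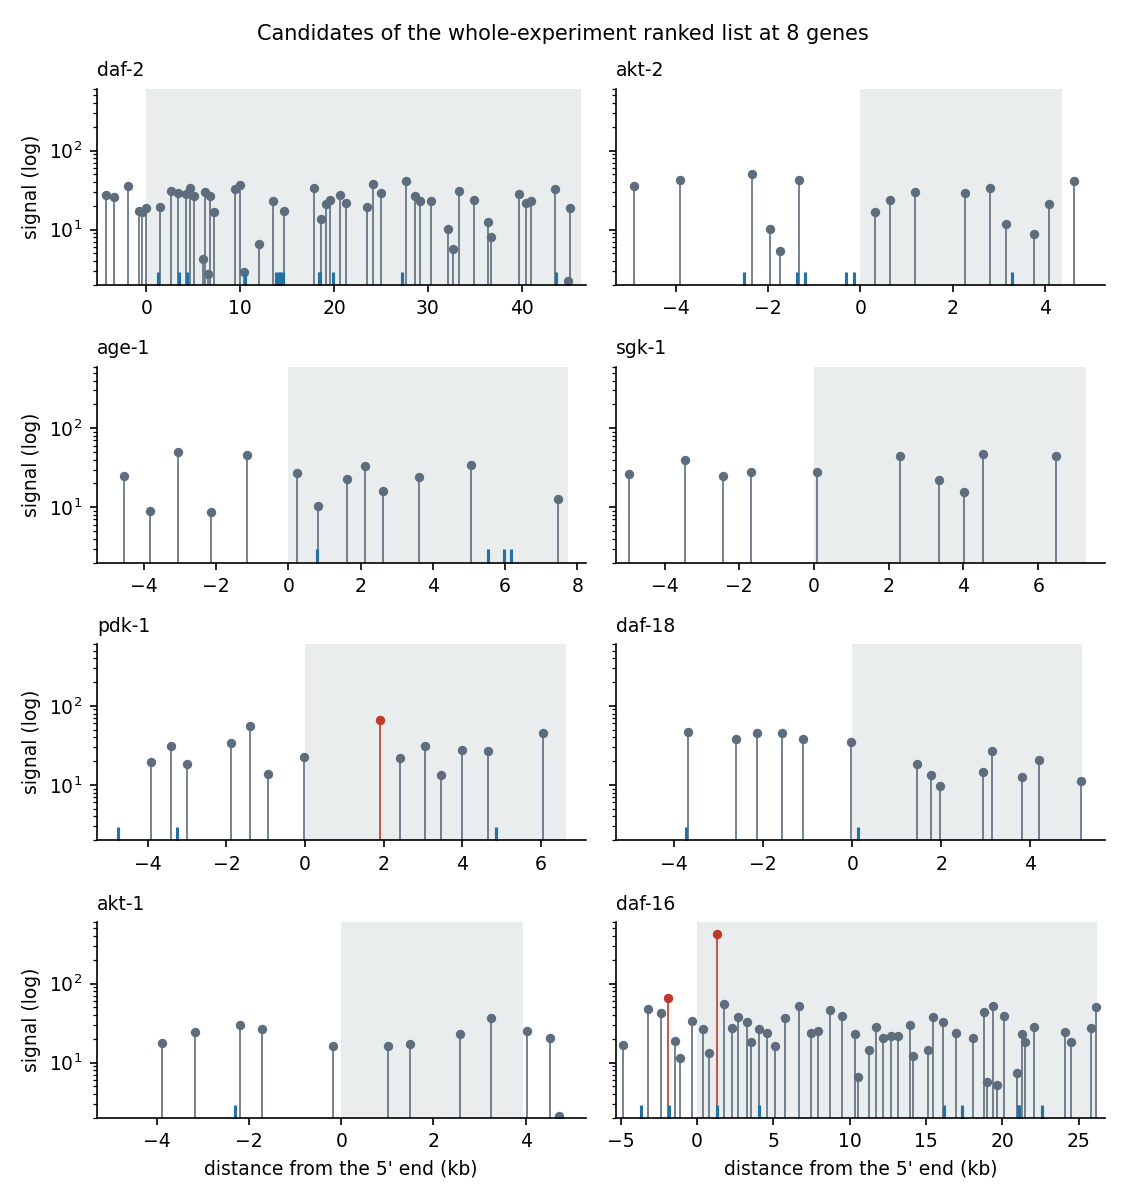
Signal of each candidate of the whole-experiment ranked list (log scale) against distance from the 5' end in kb, with the gene body shaded and CACGTG sites as blue ticks. Red marks the 3 candidates in the thresholded list, at 66.4 for pdk-1 and at 421 and 65.5 for daf-16, while the highest candidate of the other 6 genes lies between 37.1 and 50.4.

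The receptor gene daf-2 (WBGene00000898, chrIII:2994514-3040846, minus strand), which also has internal starts, showed no peak past the limit along 46.3 kb of gene body. Its 48 candidates had signals from 2.24 to 41.2, with a median of 23.2, and the lowest IDR among them was 0.283. The strongest lay in a coding exon 27669 bp into the gene. Across its 6 distinct 5' ends, the highest signal within 1000 bp ranged from 6.51 at the start of transcript a to 33.2 at that of transcript d. The strongest candidate of daf-2 was above those of 52.3% of all protein-coding genes and of 37.6% of the 10% of genes with the longest bodies. In that class 11.7% of genes had a region, and daf-16, also in it, was above 99.6%. The nearest region to daf-2 lay 106 kb downstream of its body.

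The lipid kinase and phosphatase genes had candidates short of the limit, the strongest of which in the whole-experiment list lay before the gene. At age-1 (WBGene00000090, chrII:11519328-11527054, minus strand) the strongest of 13 candidates lay at −3065 bp, with a signal of 50.4 and an IDR of 0.0816. The next was at −1150 bp, with a signal of 46.3. In replicate 1 the strongest candidate lay at −1095 bp, with a signal of 34.7 at an IDR of 0.0907. In replicate 2 it lay elsewhere, 5051 bp into the gene, with a signal of 24.3 at an IDR of 0.843. The nearest region lay 7.96 kb upstream of the age-1 body, at −539 bp from Y62F5A.12 (chrII:11534888-11535147, signal 119).

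At daf-18 (WBGene00000913, chrIV:420011-425177, minus strand) the strongest of 14 candidates lay at −3689 bp, with a signal of 47.1 and an IDR of 0.0871. It held the daf-18 E-box printed above within 50 bp of its summit. The conservative list gave it an IDR of 0.0354. Its summit is 267 bp from the 5' end of Y66H1A.5, the nearest gene, and it overlaps a noncoding RNA gene. In replicate 1 the signal over this E-box was 25.8 and in replicate 2 it was 25.7, at IDR values of 0.856 and 0.476.

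The genes of the kinases downstream of PDK-1 had no peak past the limit. At akt-1 (WBGene00000102, chrV:10248905-10252845, plus strand) the strongest of 12 candidates had a signal of 37.1 and an IDR of 0.304, above that of 37% of genes. At akt-2 (WBGene00000103, chrX:14147700-14152070, plus strand) the strongest of 15 lay at −2361 bp, with a signal of 50.4 and an IDR of 0.597, or 0.165 in the conservative list. The lowest IDR at akt-2 was 0.195, at −3903 bp, and in the conservative list 0.0944, at −4909 bp. At sgk-1 (WBGene00004789, chrX:16254842-16262122, minus strand), for a kinase related to the Akt kinases, the strongest of 10 lay in a coding exon at 4519 bp, with a signal of 47.2. The sgk-1 candidate nearest the limit, at 6488 bp in an intron, had a signal of 44.9 and an IDR of 0.0372, but 0.664 in the conservative list. In replicate 2 a candidate 4 bp away had a signal of 37.3, and in replicate 1 the nearest, at 6060 bp, had 14.8.

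**Figure D3:**
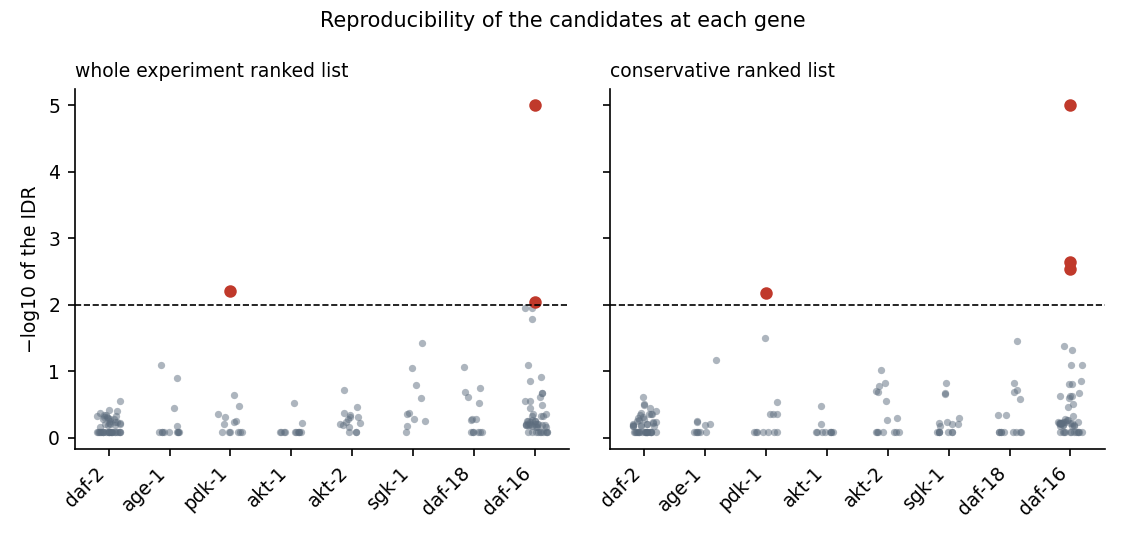
The −log10 of the IDR of each candidate at the 8 genes in the whole-experiment and conservative ranked lists, with the limit of 0.01 as a dashed line at 2. Red points past the line are 1 at pdk-1 in each list and, at daf-16, 2 in the whole-experiment list and 3 in the conservative list.

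The replicates placed their strongest peak at the same spot for daf-16 alone among the 8 genes. For each of the other 7 genes the strongest candidates of the 2 replicates did not overlap, and their summits lay from 462 bp apart at akt-1 to 6146 bp apart at age-1. At pdk-1 they were 3296 bp apart. How often the strongest candidates overlap over all protein-coding genes was not measured, so these counts have no background. By signal, the strongest candidate of daf-16 was above those of 99.7% of all genes in the whole-experiment list, and that of pdk-1 was above 91.5%. The others followed as age-1 and akt-2 (77.7% each), sgk-1 (71.2%), daf-18 (70.9%), daf-2 (52.3%) and akt-1 (37%). The order below daf-16 differed between the replicates. In replicate 1 age-1 was at 90.3% and pdk-1 at 77.8%, below akt-2 (82.6%) and daf-18 (80.8%). In replicate 2 pdk-1 was at 92.6%, sgk-1 at 91.8% and age-1 at 56.2%.

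**Figure D4:**
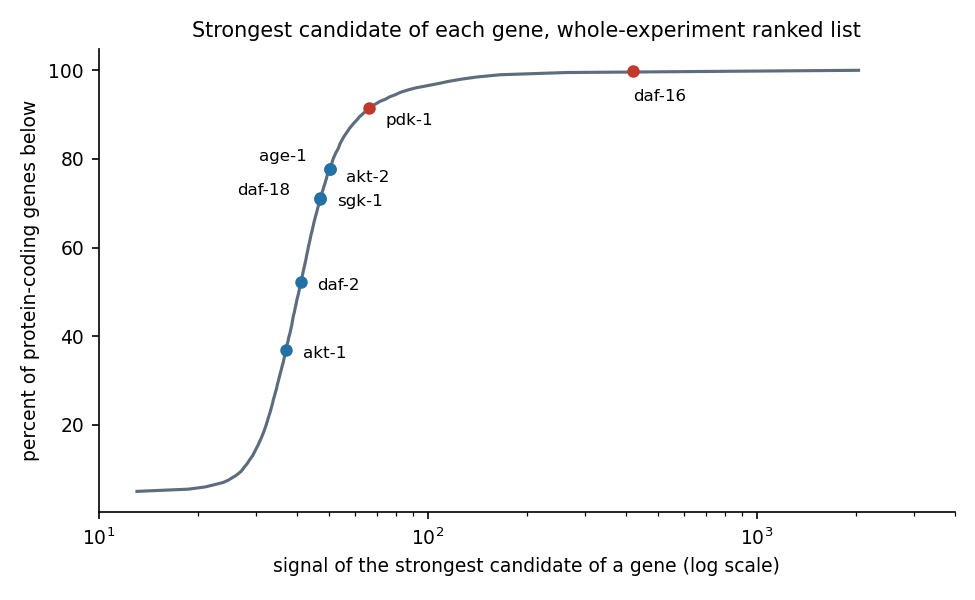
Percent of the 19973 protein-coding genes whose strongest candidate is below a given signal (curve, log axis) in the whole-experiment ranked list, with the 8 members as points, red for those with a region. The daf-16 point, at 421, lies at 99.7%, pdk-1 at 91.5% and the other 6 between 37% and 77.7%.

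The E-box CACGTG lay under the strong daf-16 peak and under no other summit of the pathway's regions. The site starts 1297 bp into the gene, the summit of the whole-experiment list falls on it, and the replicates' summits lay 3 bp and 0 bp from it. One match to CACATG, another E-box form, lay within 50 bp of the same summit. Over all 968 regions CACGTG was found in 157 and CACATG in 132 (13.6%), against 1.86% and 2.98% of windows of the same length centred on the 5' ends of all protein-coding genes. At the upstream daf-16 region a CACGTG lay 62 bp from the summit, inside the deposited region. It was 12 bp from the summit of replicate 1 and 113 bp from that of replicate 2. The DAF-16 binding element TGTTTAC, searched on both strands, was in none of the 3 regions' summit windows and in 1.14% of those of all regions.

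At pdk-1 the summit held neither E-box form but a match each to CACGCG and to ACGCAG, as printed above, which do not overlap. These were in 8.37% and 13.0% of all regions, and in 1.18% and 2.19% of the windows at 5' ends, with both strands searched. Neither hexamer lay at a daf-16 summit. A match to a motif in these windows describes the sequence and does not show a bound site.

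Most E-boxes of the pathway lay outside regions, as over the whole genome. The 8 windows held 38 CACGTG, of which 13 were at daf-2, 9 at daf-16, 6 at akt-2, 4 at age-1, 3 at pdk-1, 2 at daf-18, 1 at akt-1 and 0 at sgk-1. Inside a region were 2 of the 38 (5.26%), both at daf-16, compared with 264 of 17729 over the nuclear genome (1.49%). Under a candidate of the whole-experiment list were 14 of the 38 (36.8%), compared with 33.2% over the genome. At daf-2 2 of the 13 were under a candidate of the whole-experiment list, with signals of 13.6 and 17. The E-boxes of akt-2 at −1383 and −1202 bp shared a candidate with a signal of 42.2 at an IDR of 0.700, and those at −305 and −136 bp, nearest the start, had none in that list. At daf-16 the 7 E-boxes outside regions had no candidate or one with a signal from 7.37 to 33.

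Other genes of insulin signalling were read by the same rule, against the background of 9.01% in the whole-experiment list, 4.30% in replicate 1 and 4.41% in replicate 2. Of 39 genes for insulin-like peptides, the ligands of DAF-2, 6 had a region (15.4%), compared with 3 in the list of replicate 1 and 5 in that of replicate 2. These were ins-13 (signal 138), ins-17 (114.7), ins-39 (91.2) and ins-37 (84.2), and ins-11 and ins-12, which share 1 region (78.3). The ins-17 region is nearest the 5' end of rps-1, a ribosomal protein gene, and the ins-37 region is nearest that of F08G2.5. Those at ins-13, ins-17 and ins-37 overlap noncoding RNA genes. The ins-39 region was at −655 bp and overlaps none. It was in the list of replicate 1 and not in that of replicate 2.

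The list for adaptors and regulators of the kinases also holds unc-31, egl-3, ncs-1 and asna-1. Of its 15 genes 2 had a region (13.3%), but 0 in the list of replicate 1 and 1 in that of replicate 2. They were unc-31, for a protein needed for dense core vesicle release (signal 81.5), and pptr-1, for a phosphatase subunit that acts on AKT-1 (signal 77.3). Of 26 genes for DAF-16 partners and regulators, 5 had one (19.2%), compared with 4 in replicate 1 and 2 in replicate 2. Among them was cbp-1, for a histone acetyltransferase (signal 202, −863 bp, in both replicates' lists). Another was ftt-2, for a 14-3-3 protein that holds DAF-16 in the cytoplasm (signal 101, −562 bp, in both lists, overlapping a noncoding RNA gene). The others were smk-1 (99.0, nearest the 5' end of fip-4), hlh-30 (72.2) and skn-1 (66.1, overlapping a noncoding RNA gene). None of these reached the 421 of the daf-16 region.

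The 43 genes read as textbook targets of DAF-16 include both genes with the symbol hsp-16.1. Of the 43 genes 6 had a region (14%), with signals from 62.1 to 107, but 1 in the list of replicate 1 and 3 in that of replicate 2. These were icl-1, a glyoxylate cycle gene (107, nearest the 5' end of srh-2), tps-2, for trehalose synthesis (90.8), hsp-16.1 (82.8), dct-1 (69.0), and gpd-2 and gpd-3, neighbours that share 1 region (62.1). The hsp-16.1 region lies 4314 bp from the start of 1 of the 2 genes with that symbol, and F21C10.10 is nearer. The dct-1 region overlaps a noncoding RNA gene. The genes sod-3 and mtl-1, common reporters of DAF-16 activity, had none. In the list for the parallel TOR pathway, which also holds pha-4, 0 of 15 genes had a region. A floor of 3 counts would be a share of 20%, and the exact 95% interval reaches 21.8%. Such limits apply to genes drawn at random, which these were not. Among 16 dauer genes 3 had a region (18.8%), with 2 in replicate 1 and 3 in replicate 2. They were daf-14 (106), din-1 (103, overlapping a noncoding RNA gene) and daf-5 (83.3). The 16 cover the TGF-β and steroid branches of dauer control and also hold daf-11, daf-6, daf-10, daf-19 and daf-22. The list for AMP-activated kinase also holds par-4. Of its 10 genes 3 had a region (30%), with 1 in replicate 1 and 2 in replicate 2. They were aak-2 (136, overlapping a noncoding RNA gene), aakg-3 (82.1) and aakg-1 (63.7).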

How the data were processed

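ChIP-seq of EGFP-tagged MXL-2 was deposited as peak lists on ce11. Per the deposited file notes, they were made from filtered alignments and further inputs of unstated type. No source used here names the aligner or peak caller. The deposited signal is the authors' enrichment per peak, set within each list, and the deposited −log10 column of the ranked lists is that of the IDR. Each thresholded line was found among the ranked candidates, with an IDR no higher than 0.01. The ranked lists also hold 8 columns of signal per input that could not be tied to a sample and were not used.

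Overlapping lines were joined, keeping the strongest summit, and placed on Ensembl release 115 (WBcel235) with Python 3.11.15 and pandas 2.3.3. A count took summits in the gene body or within 5 kb of the 5' end, for the members and for all 19973 nuclear protein-coding genes. Length classes follow gene length, because most short genes share the same window length. Counting was tested on simulated data. No test between groups was possible with 1 group. The genes named outside the pathway are up to 4 per list with the strongest regions; ins-11, ins-12, skn-1, gpd-2 and gpd-3 were named beyond that after their values were seen, as were sod-3, mtl-1 and the hexamers CACGCG and ACGCAG. Ins-38, hsp-16.49 and daf-21 were not matched by symbol. The members, lists and alternatives were chosen with earlier results of these data known. Replicates are separate biological samples per the labels.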

Additional observations from a re-analysis of the deposited data

How the results depend on the processing

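The strong daf-16 region was found under every list and window tried, and the weaker ones under only some of them. Each replicate's own list gave 1 region at the 8 genes in place of 3 (range 1 to 1), 1 member with a region in place of 2 (1 to 1), 1 region at daf-16 in place of 2 (1 to 1) and 1 region with CACGTG within 50 bp (1 to 1). Regions in both replicates' lists gave 1, 1 and 1 for regions, members and daf-16 regions, as did the 50% of regions of higher signal (1, 1 and 1). A distance of 1 kb, and the gene body alone, each left 1 region at daf-16. CACGTG lay in 2 regions within 100 bp of the summit and in 2 when the whole deposited region was searched. The conservative list gave 4 regions, of which 3 were at daf-16. The share of all genes with a region was 1.83% for the gene body alone, 3.64% within 1 kb, 4.94% within 2 kb and 15.1% within 10 kb. No paired analysis was possible because all libraries belong to 1 group. With no read counts, a member without a region may have binding below what these lists detect.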

Other observations

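Several E-boxes of daf-2, akt-2 and age-1 share more than the 6 letters, a pattern seen in the printed sequences and counted afterwards. Of the 38 CACGTG at the 8 genes, 11 are flanked by GTG (or by CAC on the other side), 10 have another CACGTG 150 to 200 bp away, and 9 lie in soft-masked, repetitive sequence of the RefSeq genome. The daf-16 E-boxes inside regions belong to none of these classes. The same holds for every site at pdk-1 (3), daf-18 (2) and akt-1 (1), none of which is in a region. Of the 9 sites at daf-16 only 1, which is soft-masked and outside regions, belongs to any class. Over the nuclear genome, 8 of 2390 sites flanked by GTG were inside a region (0.335%), compared with 256 of the other 15339 (1.67%). Soft-masked sites were inside a region in 5 of 2268 cases (0.220%) and the rest in 259 of 15461 (1.68%). Sites with another CACGTG 150 to 200 bp away were in 6 of 1537 cases (0.390%), and the rest in 258 of 16192 (1.59%). The shares under any candidate of the ranked list, for the class and for the other sites, were 35.6% and 32.9% by the flank, 31.3% and 33.5% by masking, and 37.3% and 32.8% by the second site. These classes overlap, sites of 1 repeat family are not independent, and the part of read mapping in these shares was not tested.

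Of the 6 members without a region, age-1 had the nearest one, 7.96 kb from its body. The gaps were 32 kb for akt-2, 45 kb for sgk-1, 89.2 kb for akt-1, 106 kb for daf-2 and 116 kb for daf-18. The nearest region to pdk-1 outside its window was that of ins-39, a ligand gene, 17.1 kb downstream of pdk-1.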
